A study of Homo sapiens with 6 samples.

Results

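SFRP2 and 9 other secreted regulators of Wnt signalling, SFRP1, SFRP4, FRZB, DKK1, DKK2, DKK3, WIF1, WNT5A and WNT5B, are 10 of the 58735 genes in the deposited count and FPKM tables, and were taken from them by gene name. SFRP2 was chosen by its measured decrease in this same contrast, and the other 9 were added as secreted Wnt regulators with results of these data already known, so their differences are given as a description and without a test. The RNA came from H2452, an established human pleural mesothelioma (PM) cell line, in 3 libraries labelled WT (sgCtrl) and 3 labelled NF2-KO (sgNF2-1), which are all the libraries of the series. Both groups carried a lentiviral construct that expresses Cas9, an mCherry reporter and a guide RNA, which was scrambled in sgCtrl and directed at NF2 in sgNF2-1, and both were grown in RPMI-1640 medium with serum. The infected cells were kept as sorted mCherry-positive populations rather than described as clones, and only 1 NF2 guide was sequenced. NF2 encodes merlin, an upstream activator of the Hippo pathway that restrains the transcription factor partners YAP and TAZ.

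Wnt proteins are secreted, lipid-modified ligands. In the canonical branch they bind a Frizzled receptor together with the coreceptor LRP5 or LRP6, which stabilizes beta-catenin and lets it activate genes with TCF and LEF factors, whereas ligands such as WNT5A act mostly through Frizzled, ROR and RYK receptors without beta-catenin. Secreted frizzled-related proteins (SFRP1, SFRP2, SFRP4 and FRZB) and WIF1 bind the Wnt ligands themselves, while Dickkopf proteins such as DKK1 and DKK2 bind LRP5 and LRP6 and keep them from forming the receptor complex. Several of these inhibitors are known from tumours, mesothelioma included, as genes that are often silenced by promoter methylation.

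The 2 inhibitors whose RNA moved furthest apart were SFRP2 and DKK1, and the letters just upstream of both genes are shown here so that their promoters can be compared. They are from RefSeq (GRCh38.p14), read 5′ to 3′ on the strand of the gene, and are restricted to the bases before the annotated start that also lie outside the gene in the deposited tables. Capitals mark CATTCC or its reverse complement GGAATG, the core letters bound by TEAD factors (the DNA-binding partners of YAP and TAZ), and CTTTGA or its reverse complement TCAAAG, core letters bound by TCF and LEF factors.
SFRP2 (chr4:153789121-153789333, minus strand): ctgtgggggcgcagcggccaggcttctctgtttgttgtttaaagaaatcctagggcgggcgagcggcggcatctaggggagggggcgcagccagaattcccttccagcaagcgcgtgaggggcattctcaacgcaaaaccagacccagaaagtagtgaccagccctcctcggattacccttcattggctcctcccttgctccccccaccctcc
DKK1 (chr10:52314031-52314280, plus strand): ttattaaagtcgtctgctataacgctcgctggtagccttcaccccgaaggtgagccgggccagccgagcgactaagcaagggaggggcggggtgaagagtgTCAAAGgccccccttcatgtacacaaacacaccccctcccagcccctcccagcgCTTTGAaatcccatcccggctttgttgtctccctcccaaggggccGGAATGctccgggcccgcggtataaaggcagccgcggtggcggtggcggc
The 250 bases before the DKK1 start held GGAATG 50 bases before the start and the TCF and LEF letters at 149 and 95 bases before it. None of these letters occurred in the 250 bases before the SFRP2 start, nor in the windows of SFRP4, FRZB, WIF1, WNT5A and WNT5B, the latter pair with 2 starts each. RefSeq windows were found for 7 of the 10 genes, 9 windows in all. Over the 35116 promoters of the reference, 11.9% held the TEAD letters and 11.2% the TCF and LEF letters on either strand of the same length of sequence. The SFRP2 window was 57.6% G or C with 11 CpG pairs and the DKK1 window 62.8% with 18, where the medians of all promoters were 58% and 11. A match of 6 letters is a description of the sequence only, and no binding was measured here.

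The libraries held 14782423 to 17416463 counted reads each. Levels below are CPM, in which a gene's reads are divided by the library total after TMM scaling, for comparing libraries, and FPKM, which also divides by gene length, for comparing genes. Of all genes, 14179 passed the filter on low counts and were fitted with edgeR's quasi-likelihood model, and a gene is called where its Benjamini-Hochberg adjusted p is under 0.05 and its log2 fold change is beyond 0.5 in either direction. By this rule 8.42% of the tested genes were called higher in sgNF2-1 and 9.32% lower, and the median log2 fold change was -0.0025. The targeted gene NF2 was at 71.4 ± 3.36 CPM in sgCtrl and 44.2 ± 6.77 CPM in sgNF2-1 (SD, n = 3 each), which the model fitted as a log2 fold change of -0.69 with a standard error of 0.10 (edgeR adjusted p = 7.9e-06). The study describes its replicates in general as biological, but neither it nor the labels say whether these libraries came from separate cultures, so the p-values measure the spread between these libraries, part of which may be technical. Chi-square values of library pairs, divided by their degrees of freedom, were 5.12 to 12.55 for the 6 pairs of replicates, above the value near 1 that counting error alone would give, and 39.96 to 52.56 for the 9 pairs across groups.

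Among the 10 secreted regulators, SFRP2 was 11.8-fold lower in sgNF2-1 cells, WNT5A was 1.80-fold lower and DKK1 was 1.61-fold higher, while DKK3 and WNT5B differed by less than the fold limit and 5 genes were too low to test. Of the 5 tested members, 1 was called higher, 2 were called lower and 2 were not called, beside the 8.42% and 9.32% of all tested genes. All 5 had groups that did not overlap: every sgNF2-1 library was above every sgCtrl library for DKK1 and DKK3, as for 23.2% of all tested genes, and below for SFRP2, WNT5A and WNT5B, as for 22.2%. These shares are background only, because the members were chosen with this contrast known. In bulk RNA, fewer cells that express a gene and less of its RNA in each cell cannot be told apart.

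**Figure D1:**
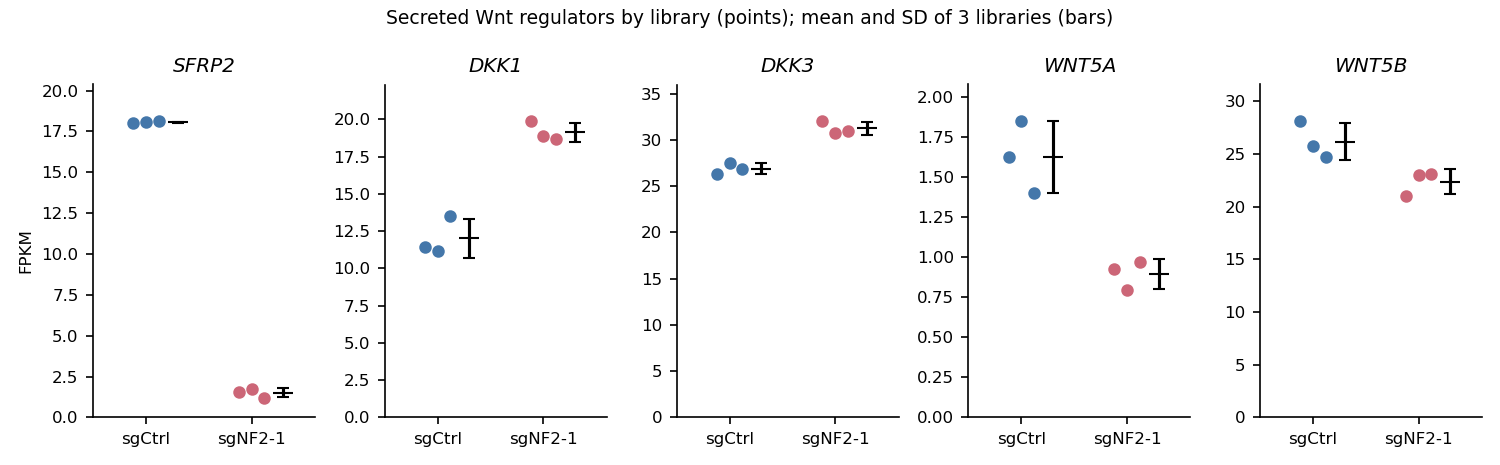
FPKM of the 5 tested secreted Wnt regulators in each of the 6 libraries (points; each y axis starts at 0 and has its own scale), with the mean and SD of 3 libraries per group beside them. SFRP2 stands at 18.0 to 18.1 FPKM in sgCtrl and 1.20 to 1.74 FPKM in sgNF2-1, and in no panel do the 2 groups overlap.

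SFRP2 (ENSG00000145423) lies on chromosome 4, minus strand, from 153780592 to 153789120 (GRCh38), and encodes a secreted frizzled-related protein, which carries a cysteine-rich domain like that of the Frizzled receptors and binds Wnt ligands with it. Its raw counts were 608, 634 and 590 in sgCtrl replicates 1 to 3 and 60, 58 and 37 in sgNF2-1 replicates 1 to 3. In CPM these are 38.6, 38.6 and 38.9 against 3.41, 3.76 and 2.60. The sgCtrl libraries were nearly identical in CPM, closer than counting error at these counts would usually leave them, so their SD may understate the spread. All 3 sgNF2-1 libraries were far below the sgCtrl libraries, and the lowest was sgNF2-1 replicate 3. The means were 38.7 ± 0.163 CPM in sgCtrl and 3.26 ± 0.595 CPM in sgNF2-1 (SD, n = 3 each), so that 8.41% of the sgCtrl level was left. The fitted log2 fold change was -3.56 (standard error 0.14), the fourth lowest (rank 4) among the 14179 tested genes. Ranked by mean FPKM among the tested genes, SFRP2 went from position 2411 in sgCtrl to position 9717 in sgNF2-1. SFRP2 RNA was therefore low but not lost in sgNF2-1, with 155 reads over the 3 libraries (95% Poisson interval 132 to 181, counting error only).

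**Figure D2:**
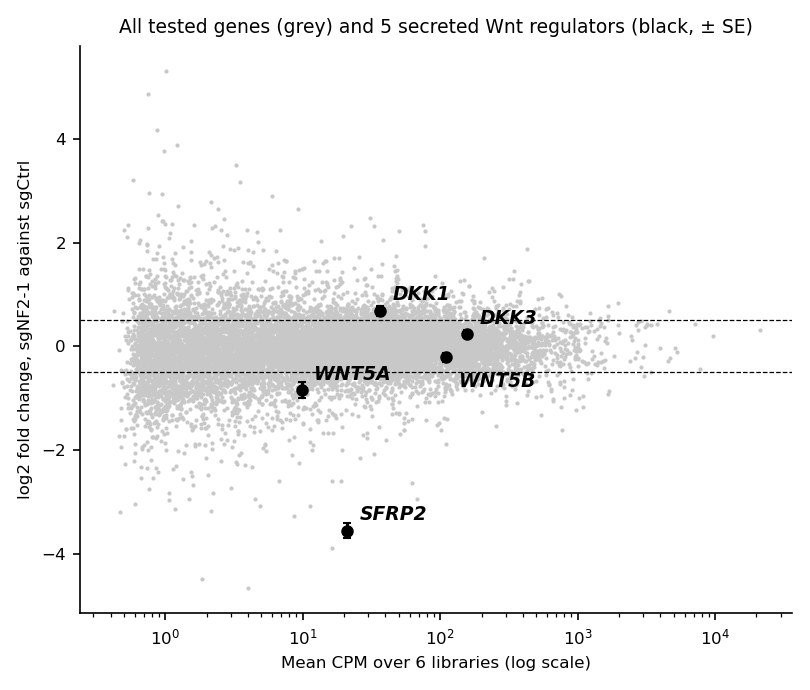
Fitted log2 fold change of sgNF2-1 against sgCtrl (y axis) over mean CPM of the 6 libraries (x axis, log scale) for the 14179 tested genes (grey) and the 5 tested secreted Wnt regulators (black, with the standard error). Dashed lines mark log2 fold changes of -0.5 and 0.5. SFRP2 sits at -3.56, below nearly all genes of its level. DKK1 at 0.68 and WNT5A at -0.85 lie beyond the lines, and DKK3 and WNT5B between them.

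The other frizzled-related proteins and WIF1 were close to or at the lower limit of the assay in both groups. SFRP1 (chromosome 8) had 5, 7 and 3 reads in sgCtrl and 5, 11 and 4 reads in sgNF2-1, in all 15 (95% Poisson interval 8.40 to 24.7) against 20 (12.2 to 30.9). FRZB, also called SFRP3, had 14, 5 and 8 reads against 7, 2 and 5, in all 27 (17.8 to 39.3) against 14 (7.65 to 23.5). For both genes the libraries of the groups overlapped and so did the intervals, and a difference was not detectable at this depth. SFRP4 had 1, 0 and 2 reads in sgCtrl and 1, 0 and 1 in sgNF2-1, and it shares its locus with EPDR1 on the opposite strand, which had 1139 reads. WIF1, a Wnt-binding inhibitor unrelated to the SFRP family, had 0 reads in all 6 libraries. A count of 0 allows up to 3 reads, which is 0.170 to 0.211 CPM depending on the library. SFRP2 was thus the only member of its family with more than 14 reads in any library.

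DKK1 and DKK3 differed from sgCtrl in the opposite direction to SFRP2. DKK1 (ENSG00000107984, chromosome 10, plus strand, 52314296 to 52318042), which encodes the LRP5 and LRP6 antagonist of the family, had 419, 425 and 478 reads in sgCtrl and 822, 682 and 626 in sgNF2-1. In CPM, sgCtrl held 26.6, 25.9 and 31.5 and sgNF2-1 held 46.7, 44.2 and 44.0. All sgNF2-1 libraries exceeded the highest sgCtrl library, replicate 3, which stood apart from the other sgCtrl libraries. The means were 28.0 ± 3.06 and 45.0 ± 1.53 CPM (SD, n = 3 each). The fitted log2 fold change was 0.68 (standard error 0.10). Leaving out each library in turn gave 0.63 to 0.78, the lowest without sgCtrl replicate 2 and the highest without sgCtrl replicate 3. DKK3 (ENSG00000050165, chromosome 11, minus strand, 11963106 to 12009769) is the most divergent of the family, and its action on Wnt signalling is not settled. Its CPM were 140.4, 146.8 and 143.3 in sgCtrl and 172.5, 165.2 and 167.1 in sgNF2-1, with means of 143.5 ± 3.18 and 168.3 ± 3.80. The groups were apart by more than their spread, but the log2 fold change of 0.23 (standard error 0.08) lay inside the fold limit. DKK2, another LRP5 and LRP6 ligand, had 0 reads in every library.

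Summed over the 8 inhibitor-family members, FPKM was 57.2 ± 1.32 in sgCtrl and 52.1 ± 1.38 in sgNF2-1 (SD, n = 3 each), with the libraries of the groups apart (56.1 to 58.7 against 51.0 to 53.6). The make-up of this sum differed far more than its size. SFRP2 gave 31.6 ± 0.63% of it in sgCtrl and 2.89 ± 0.52% in sgNF2-1. DKK1 gave 21.0 ± 1.81% and 36.8 ± 0.26%, and DKK3 gave 47.0 ± 1.35% and 60.0 ± 0.59%. Expressed as a ratio, SFRP2 FPKM was 1.34 to 1.62 times DKK1 FPKM in the sgCtrl libraries and 0.064 to 0.092 times DKK1 FPKM in the sgNF2-1 libraries. These shares use transcript abundance only, and neither protein nor secretion was measured here.

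**Figure D3:**
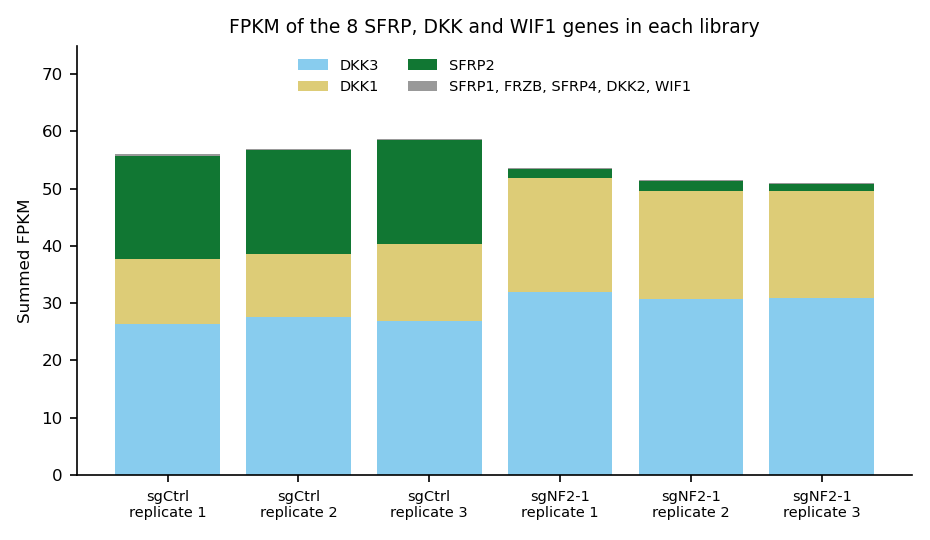
FPKM of SFRP2, DKK1, DKK3 and the other 5 inhibitor-family members, stacked for each of the 6 libraries (y axis, summed FPKM from 0). The bars reach 56.1 to 58.7 FPKM in sgCtrl and 51.0 to 53.6 FPKM in sgNF2-1, the SFRP2 segment shrinks to a thin band in sgNF2-1, and the 5 low genes are hardly visible in any bar.

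Both ligands among the members were lower in sgNF2-1, to different degrees. WNT5A (ENSG00000114251, chromosome 3, minus strand, 55465715 to 55490539), the prototype ligand of the noncanonical branch, had 200, 236 and 166 reads in sgCtrl and 128, 96 and 109 in sgNF2-1. Its CPM fell short of the lowest sgCtrl library in each sgNF2-1 library, with means of 12.7 ± 1.72 and 7.05 ± 0.743 (SD, n = 3 each). The log2 fold change was -0.85 (standard error 0.16), leaving 55.6% of the sgCtrl level. On the log2(FPKM + 1) scale, which compresses genes of low FPKM, the WNT5A difference was -0.47 and inside the fold limit. WNT5B (ENSG00000111186, chromosome 12, plus strand, 1529891 to 1647243), a close relative of WNT5A, had 2010, 1916 and 1706 reads in sgCtrl and 1699, 1620 and 1511 in sgNF2-1. Its means were 118.9 ± 7.78 and 102.5 ± 5.22 CPM, and the libraries did not overlap, but the log2 fold change of -0.21 (standard error 0.08) was inside the fold limit. WNT5A overlaps the antisense gene WNT5A-AS1 (60 reads over all libraries), WNT5B overlaps FBXL14 on the opposite strand (1774 reads) and DKK1 overlaps PRKG1-AS1 (30 reads), and whether counting used strand is not given in the sources used here.

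Compared per length, DKK3 (26.9 ± 0.62 FPKM) and WNT5B (26.2 ± 1.72 FPKM) were the most abundant members in sgCtrl and their libraries overlapped. SFRP2 (18.0 ± 0.057 FPKM) and DKK1 (12.0 ± 1.3 FPKM) followed, and WNT5A (1.62 ± 0.22 FPKM) was far below. In sgNF2-1 the order was DKK3 (31.2 ± 0.66 FPKM), WNT5B (22.4 ± 1.2 FPKM), DKK1 (19.1 ± 0.64 FPKM), SFRP2 (1.5 ± 0.28 FPKM) and WNT5A (0.895 ± 0.092 FPKM). SFRP2 thus stood above DKK1 in sgCtrl and below it in sgNF2-1, where no neighbouring members overlapped in that order.

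Among all Wnt ligand genes of the table, WNT5B was the main transcript in both groups, at 72.9 ± 2.41% of their summed FPKM in sgCtrl and 69.2 ± 1.47% in sgNF2-1. WNT3, a canonical ligand, gave 16.6 ± 1.83% and 20.4 ± 1.42%, and WNT5A 4.51 ± 0.45% and 2.77 ± 0.33%. WNT5B FPKM was 16.3 ± 2.04 times that of WNT5A in sgCtrl and 25.2 ± 3.32 times in sgNF2-1. Of the 17 other ligands, 4 were tested (WNT2B, WNT3, WNT7B and WNT9A) and none was called by edgeR or DESeq2, with 0 at an unadjusted p under 0.05 and a median log2 fold change of 0.11. WNT1, WNT2, WNT10A and WNT16 had 0 reads throughout. PORCN and WLS, needed for lipidation and release of Wnt proteins, differed by 0.12 ± 0.16 and -0.11 ± 0.10 on the log2 scale (± standard error, edgeR adjusted p = 0.61 and 0.41).

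The other secreted or cell-surface regulators gave no call either. Of 18 listed genes, 6 were tested, with 0 called by edgeR or DESeq2, 0 at an unadjusted p under 0.05 and a median log2 fold change of 0.09. RSPO3, an R-spondin that amplifies Wnt signals, had a log2 fold change of 0.36 (standard error 0.29, edgeR adjusted p = 0.37). KREMEN1 and KREMEN2, membrane receptors for DKK1, had differences of 0.09 and -0.34 with standard errors of 0.31 and 0.48. SFRP5, DKK4, SOSTDC1, CER1 and RSPO1 were at 0 reads in all libraries.

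On the receiving side, 14 of 19 receptors and coreceptors were tested, of which 4 were called lower and 0 higher, with a median log2 fold change of -0.29 beside -0.0025 over all tested genes. LGR4, a receptor for R-spondins, fell by 1.18 on the log2 scale (standard error 0.16, edgeR adjusted p = 1.9e-06). FZD1, a Frizzled receptor, fell by 0.80 (standard error 0.18, edgeR adjusted p = 0.0010). LRP5 and LRP6, the coreceptors that DKK1 binds, both fell by 0.61, with standard errors of 0.084 for LRP5 and 0.14 for LRP6 (edgeR adjusted p = 2.9e-06 and 0.0014). LRP5 counts were 2363, 2446 and 1972 in sgCtrl and 1614, 1441 and 1357 in sgNF2-1, without overlap. FZD6 was apart in the other direction, with every sgNF2-1 library above every sgCtrl library and a difference of 0.45 (standard error 0.11, edgeR adjusted p = 0.0032) inside the fold limit, and was called higher without sgCtrl replicate 1 (0.54). FZD7, at -0.28, was called lower without sgCtrl replicate 3 (-0.57). On the log2(FPKM + 1) scale LRP6 (-0.38) and FZD1 (-0.40) were inside the fold limit. FZD2, the most abundant Frizzled gene at 48.5 FPKM in sgCtrl, differed by 0.0045 (standard error 0.083, edgeR adjusted p = 0.98). Of the receptors used by WNT5A, ROR1 had a difference of 0.24 (standard error 0.15, edgeR adjusted p = 0.24), ROR2 one of -0.29 (standard error 0.10, edgeR adjusted p = 0.036, inside the fold limit) and RYK one of -0.034 (standard error 0.084, edgeR adjusted p = 0.79). ZNRF3, a ubiquitin ligase that removes Frizzled from the membrane, had a difference of 0.46 (standard error 0.21, edgeR adjusted p = 0.088), and its partner RNF43 had 0 reads throughout.

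Of 37 intracellular components of the canonical branch, 32 were tested, with 2 called higher and 1 lower and a median log2 fold change of 0.037. AXIN1, a scaffold of the beta-catenin destruction complex, rose by 0.71 (standard error 0.094, edgeR adjusted p = 1.9e-06). DVL2, which relays the signal from Frizzled, rose by 0.51 (standard error 0.084, edgeR adjusted p = 3.8e-05), just past the fold limit. It was inside the limit without sgCtrl replicate 3 (0.49), without sgNF2-1 replicate 3 (0.46) and with scaling by library totals (0.48). On the log2(FPKM + 1) and log2(FPKM + 0.1) scales DVL2 was also inside it (0.47 and 0.49). TLE4, a corepressor of TCF and LEF factors, fell by 1.09 (standard error 0.25, edgeR adjusted p = 0.0013). CTNNB1, which encodes beta-catenin, differed by -0.49 (standard error 0.082, edgeR adjusted p = 4.7e-05), just inside the fold limit. It was past the limit without sgCtrl replicate 3 (-0.53) and without sgNF2-1 replicate 1 (-0.55). Scaling by library totals (-0.518) and the log2(FPKM + 0.1) scale (-0.504) also put CTNNB1 past it. APC, also of the destruction complex, and its relative APC2 were inside the limit at -0.46 and 0.45, with APC past it without sgCtrl replicate 1 (-0.52) or sgNF2-1 replicate 2 (-0.51) and APC2 without sgCtrl replicate 2 (0.50) or sgNF2-1 replicate 1 (0.53).

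Of 14 textbook target genes of beta-catenin, 4 were tested and 1 was called, with a median log2 fold change of 0.16 that has no stable sign, being -0.23 over the 12 genes fitted without a filter and from -0.14 to -0.11 where leaving out sgCtrl replicate 1 or any sgNF2-1 replicate let 5 genes be tested. MYC, a target of many pathways, rose by 1.07 (standard error 0.078, edgeR adjusted p = 1.1e-10), from 50.4 to 104.8 FPKM. CCND1, also shared by many pathways, had a difference of -0.14 (standard error 0.078, edgeR adjusted p = 0.19). AXIN2, the target most used as a readout of the pathway, had 2, 4 and 4 reads in sgCtrl and 6, 2 and 1 in sgNF2-1 and was not tested. ZNRF3 (0.46) and TCF7 (-0.31), the remaining tested targets, were not called. TNFRSF19, too low to test, had 9, 16 and 11 reads in sgCtrl and 6, 6 and 4 in sgNF2-1, without overlap in CPM. The groups overlapped for SP5 (3, 10 and 5 against 6, 1 and 0) and NKD1 (8, 0 and 5 against 2, 2 and 1). They also overlapped for NOTUM (2, 2 and 3 against 1, 6 and 2). LGR5, LEF1, NKD2, ASCL2 and RNF43 had at most 2 reads in any library. A change in canonical output was therefore not detectable from these 5 genes at this depth.

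Of 15 components of planar cell polarity and other noncanonical signalling, 9 were tested, with 1 called higher, 2 lower and a median log2 fold change of -0.12. SCRIB, a polarity scaffold, rose by 0.65 (standard error 0.11, edgeR adjusted p = 4.3e-05). PRICKLE2, a core polarity protein, fell by 1.54 (standard error 0.23, edgeR adjusted p = 1.3e-05). PRICKLE1 fell by 0.62 (standard error 0.23, edgeR adjusted p = 0.035), and its call was lost without sgCtrl replicate 1, 2 or 3 (differences of -0.59, -0.67 and -0.61) and without sgNF2-1 replicate 1 or 3 (-0.57 and -0.45), with adjusted p from 0.054 to 0.15. INVS, at 0.36, was called higher without sgCtrl replicate 3 (0.51). Over all these lists, which hold 115 genes besides the members, 70 were tested, 4 (5.71%) rose and 7 (10%) fell, beside 8.42% and 9.32% of all tested genes, and the median was 0.0054.

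**Figure D4:**
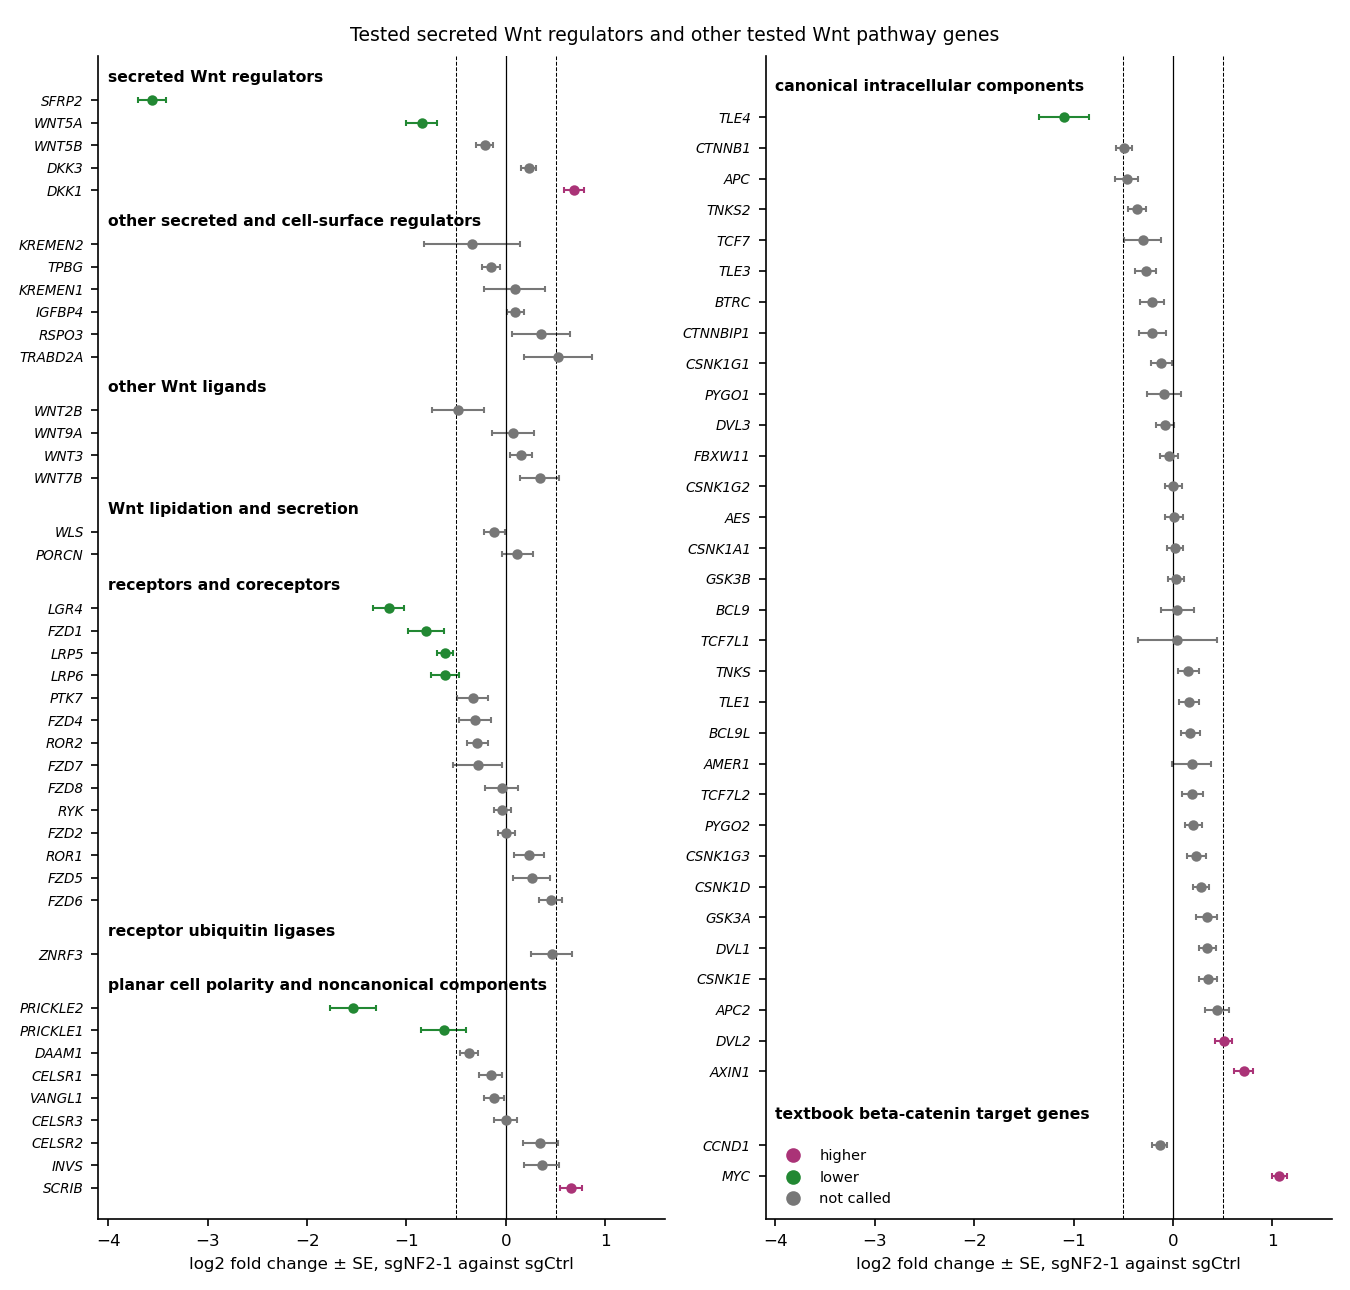
Fitted log2 fold change (x axis) with its standard error for the 5 tested secreted Wnt regulators and the 70 tested genes of the other Wnt lists, each gene drawn once, coloured by call, with dashed lines at -0.5 and 0.5. SFRP2 at -3.56 lies beyond every other gene shown, the next being PRICKLE2 at -1.54, and the 4 called receptors and coreceptors all lie on the lower side.

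Around SFRP2 on chromosome 4, the 2 nearest tested genes on each side were not called by edgeR or DESeq2. Of these 4 genes, 2 were at an unadjusted p under 0.05. TLR2, 74.9 kb away, had a log2 fold change of -0.08 (standard error 0.24) and TMEM131L, 143.9 kb away, one of 0.20 (standard error 0.14). On the other side, the antisense gene AC079298.3, at 353 kb, had -1.29 (standard error 0.54, edgeR adjusted p = 0.069) and PLRG1, at 745.9 kb, had 0.24 (standard error 0.10, edgeR adjusted p = 0.068). AC079298.3 was called lower with no filter (-1.28), without sgCtrl replicate 1 (-1.65) and without sgNF2-1 replicate 2 (-1.78).

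Genes whose log2 CPM followed SFRP2 closely over the 6 libraries included IGFBP3, PLOD2, WWTR1 and ABLIM3, with Pearson's r from 0.9983 to 0.9996. The 6 points are 3 libraries of each group, so that r mainly reflects the gap between the groups, and 760 of the 13136 genes compared had an r over 0.95. The changes of these genes were smaller than that of SFRP2: IGFBP3, an IGF-binding protein, had a log2 fold change of -1.41, ABLIM3 one of -1.08, the collagen lysyl hydroxylase PLOD2 one of -0.91 and WWTR1, which encodes TAZ, one of -0.84. WWTR1 RNA was 193.3 ± 2.68 CPM in sgCtrl and 108.3 ± 4.88 CPM in sgNF2-1 (SD, n = 3 each). The paper describes TAZ as unaffected by NF2 loss in FPKM and proteomic values. Its text does not name the gene row behind those values, so whether the same RNA is compared is not settled.

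The label of a mesothelioma line was checked against marker genes. Of 12 mesothelial and mesothelioma markers, 11 were tested, and KRT5 was at 0 to 3 reads. The summed FPKM of the list was 1248 in sgCtrl and 1276 in sgNF2-1. Most of it was VIM, KRT8, KRT18 and KRT19, at 418, 270, 235 and 230 FPKM in sgCtrl. MSLN (13.5 FPKM), CALB2 (2.41), WT1 (2.31) and UPK3B (0.82) were far lower in sgCtrl. MSLN (0.66), KRT7 (1.20) and THBD (0.61) rose and WT1 (-1.04), PDPN (-1.28) and KRT19 (-0.94) fell on the log2 scale (edgeR). KRT8, KRT18 and VIM were not called, nor were CALB2 (-0.51) and UPK3B (-0.38, edgeR adjusted p = 0.088 and 0.43). SFRP2 is also a gene of fibroblasts, and of 12 fibroblast markers 8 were tested, of which 7 fell and 0 rose, with a median log2 fold change of -2.16. Their summed FPKM was 160.9 to 176.0 in the sgCtrl libraries and 58.1 to 70.2 in the sgNF2-1 libraries. Most of this sum was 1 gene, S100A4, with a mean of 141.5 FPKM in sgCtrl and 54.0 FPKM in sgNF2-1. The largest falls were those of COL3A1 (-3.90), POSTN (-3.27) and COL1A2 (-2.95), and ACTA2 had a difference of 0.014 (edgeR adjusted p = 0.98). Of the untested markers of this list, DCN and LUM had 0 reads in all 6 libraries, PDGFRA had at most 1 read and FAP at most 3. Of 5 leukocyte markers 1 was tested, CD14, which fell by 1.06, while PTPRC had 0 reads throughout, and of 4 endothelial markers 2 were tested, of which PECAM1 fell by 2.28. The summed FPKM of these lists was 67.2 to 74.3 against 32.0 to 35.1 for leukocyte and 0.80 to 1.11 against 0.27 to 0.45 for endothelial markers, nearly all of the former being CD14. The part of these markers in the SFRP2 difference was not tested.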

How the data were processed

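RNA from H2452 sgCtrl and sgNF2-1 cells (3 libraries each) was prepared with a NEBNext Ultra kit and sequenced as paired-end reads on a NovaSeq instrument. The authors deposited raw counts per gene and FPKM values. Submitters' processing notes name HISAT2, StringTie 1.3.3b, featureCounts 1.5.0-p3 and hg38. In each library the deposited FPKM equalled the count divided by gene length and by 1 depth. Groups came from the sample titles, and the members and lists were chosen with earlier results of these data known.

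Counts were filtered with filterByExpr (minimum count 10, minimum total 15), TMM-normalized and fitted with the quasi-likelihood test of edgeR 4.0.16 in R 4.3.3, without covariates, and adjusted by the Benjamini-Hochberg method over 14179 genes. Calls took the study's limits of 0.05, here for the adjusted p, and 0.5 for the absolute log2 fold change. The procedure was tested on simulated data. Alternatives were DESeq2 1.42.0, other scalings and filters, a replicate block, leaving out each library, unadjusted p, no fold limit, and limma 3.58.1 on log2(FPKM + 1) or log2(FPKM + 0.1) with a filter at a mean of 0.5 FPKM or unfiltered. The replicate numbers were judged not to pair the libraries.

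Named genes were all members, NF2, CTNNB1, LRP5, LRP6, AXIN2, ROR1, ROR2, LGR5, RNF43, ZNRF3, every called gene of a list (with over 6 called, the 3 largest changes per direction at a mean CPM of at least 1) and the 5 genes most correlated with SFRP2. Some results under this rule are left out here. Other genes were named after their values were seen.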

Additional observations from a re-analysis of the deposited data

How the results depend on the processing

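SFRP2 stayed lower under all 15 alternatives, at -3.67 to -3.43 with counts, the range given by leaving out each library in turn, and -2.93 on the log2(FPKM + 1) scale. Of the 549 values of 37 genes under the alternatives, 522 kept their direction and side of the threshold, 23 lost the call, 4 gained it and 0 changed direction. In the whole table, 1194 genes were called higher and 1322 lower. With limma on log2(FPKM + 1) the numbers were 675 and 714, without its filter 612 and 647, and with an adjusted p and no fold limit 2515 and 2351. The secreted regulators called were 1 higher and 2 lower, with 1 lower (SFRP2) by limma on log2(FPKM + 1) with or without the filter, and 2 higher and 3 lower with no fold limit. The other Wnt genes called were 4 higher and 7 lower, with 2 lower by limma on log2(FPKM + 1), 2 and 2 without its filter, and 10 and 13 with no fold limit. The FPKM scale with a pseudocount of 1 compresses low genes by construction, and TLE4 and PRICKLE2 gave no value where its filter removed them.

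With the replicate block, 1186 genes were called higher and 1316 lower, and SFRP2 was at -3.56. The replicate numbers were judged not to pair the libraries. Same-numbered libraries deviated from their group means with correlations of only -0.029, 0.054 and 0.046. Still, 4 of 6 libraries correlated best with their own number, which by itself does not speak against pairing. No call on a secreted regulator or another Wnt gene count changed with the block. Depth limited SFRP1, FRZB, SFRP4, AXIN2 and LGR5, which did not pass the filter and were not called without it, with standard errors of 0.72 to 2.23, and DKK2 and WIF1, which had no reads to fit.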
